A study of Mus musculus with 14 samples.

Results

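The account concerns 40 genes of amino acid supply and of folding in the endoplasmic reticulum (ER), out of 27179 genes in the count table. They were chosen by symbol, and every one was found through its Entrez identifier. They fall into an amino acid arm of 22 genes (5 regulators around Atf4, 10 biosynthetic and folate enzymes and 7 transporters) and an ER arm of 18 genes (3 sensors with their transcription factors, 9 chaperones, 3 disulfide isomerases and 3 genes of ER-associated degradation). All 40 were expressed well enough to be tested. The series holds bulk RNA sequencing of CD4 T cells from C57BL/6 mice. Naive cells were grown for 3.5 days on plate-bound antibodies to CD3 and CD28 and sorted by flow cytometry before RNA isolation. Tfh5 (5 libraries) is a culture toward follicular helper T cells, which help B cells, with 5 ng/ml TGF-β. TfhA (4 libraries, replicates 1, 2, 4 and 5) is that culture with an antibody against TGF-β. Th1 (5 libraries) is a culture toward T helper 1 cells, the interferon-γ producing lineage. Stimulation through CD3 and CD28 and the culture time were common to all groups. The labels name neither the sort gate, nor the other cytokines and antibodies of each culture, nor whether replicates were separate animals or cultures. P-values therefore measure only the spread between these libraries, which may be technical.

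ATF4 is a transcription factor whose messenger RNA is translated better when the translation factor eIF2α is phosphorylated, as happens when amino acids run short or unfolded protein gathers in the ER. It activates genes that make amino acids, carry them across the membrane and charge them onto transfer RNA, and activated T cells rely on several of these genes to grow. In the ER arm, the sensor IRE1α, encoded by Ern1, splices the messenger RNA of Xbp1, and ATF6 is cut and moves to the nucleus. Both then raise chaperones, disulfide isomerases and the machinery that removes misfolded proteins. Counts per gene measure transcript abundance, and show neither the translation of Atf4 nor the splicing of Xbp1.

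Library totals were 8805921 to 16108059 counts, higher in Th1 than in Tfh5 or TfhA. Counts from the mitochondrial genome made up 8.03% ± 0.594 of the total in Tfh5, 5.82% ± 1.30 in TfhA and 5.91% ± 0.871 in Th1 (SD). This share differed for Tfh5 against TfhA (exact permutation test, two-sided, p = 0.0159, adjusted 0.0238 over 6 tests) and against Th1 (exact permutation test, two-sided, p = 0.00794, adjusted 0.0238). Tfh5 replicate 1 and Th1 replicate 1 stood apart within their groups. The chi-square over genes of Tfh5 replicate 1 against each of the other 4 libraries, divided by the degrees of freedom, was 14.8 to 26.1, and among those 4 it was 5.90 to 15. For Th1 replicate 1 it was 22.9 to 30.6, against 4.15 to 9.81 among the other 4 Th1 libraries. TfhA replicates 2 and 5 deviated from their group mean with and against Th1 replicate 1 (Pearson's r over genes of 0.327 and -0.368), and counts without these 3 libraries are given with each comparison. That leaves only replicates 1 and 4 of TfhA, and keeps Tfh5 replicate 1. Whether a call lost there reflects the smaller number of libraries was not tested. The 7 CD4 T cell markers summed to 6186 to 6514 CPM in Tfh5, 4526 to 5224 CPM in TfhA and 4368 to 4777 CPM in Th1. Those of CD8 T and NK cells (5 genes) summed to 9.40 to 24.3, 9.98 to 24 and 14.1 to 35.9 CPM in the same groups. B cell markers (5 genes) summed to 0.408 to 1.71 CPM in Tfh5, 4.35 to 7.0 CPM in TfhA and 0.378 to 1.68 CPM in Th1, and markers of macrophages and dendritic cells (5 genes) to 0.381 to 1.6, 1.59 to 3.14 and 0 to 0.486 CPM. Plasma cells carry high levels of ER chaperones. Their 5 markers summed to 28.2 to 41.7 CPM in Tfh5, 8.07 to 15.0 CPM in TfhA and 1.36 to 3.49 CPM in Th1, nearly all of it Sdc1 and Derl3 in Tfh5, where Tnfrsf17 and Mzb1 had 0 counts. Their part in the ER results was not tested.

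Some promoters of both arms carry known response elements, and stretches that hold one are shown for some of these members. Pycr1, Hsp90b1, Canx and Pdia6 also hold one before the start and are not shown. ATF4 binds with C/EBP partners to the C/EBP-ATF response element (CARE), searched here as TGATGNAAN. ATF6 and XBP1 act through the ER stress response element (ERSE), searched as CCAAT, 9 bases of any kind, CCACG, and through ERSE-II, searched as ATTGG, any base, CCACG. The search covered both strands of the window from 250 bases before to 50 bases after each start in RefSeq (GRCm38.p6, the build named mm10), which 36 members had. Capitals mark the match, which reads as its reverse complement where it lies on the opposite strand.
Asns: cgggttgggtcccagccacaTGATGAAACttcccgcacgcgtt
Chac1: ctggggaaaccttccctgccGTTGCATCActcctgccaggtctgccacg
Slc7a11: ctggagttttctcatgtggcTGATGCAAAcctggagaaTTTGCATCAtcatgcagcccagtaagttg
Hspa5: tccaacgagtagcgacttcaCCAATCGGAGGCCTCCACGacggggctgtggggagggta
Calr: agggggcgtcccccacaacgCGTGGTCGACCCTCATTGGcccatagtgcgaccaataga
Dnajc3: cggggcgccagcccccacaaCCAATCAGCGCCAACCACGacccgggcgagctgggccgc
Creld2: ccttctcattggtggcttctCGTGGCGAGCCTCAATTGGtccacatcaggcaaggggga
Herpud1: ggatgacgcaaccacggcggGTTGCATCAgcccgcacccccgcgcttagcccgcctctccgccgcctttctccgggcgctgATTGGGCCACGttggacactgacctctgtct
The 3 amino acid stretches lie at chr6:7693210-7693252, minus strand, for Asns, at chr2:119351028-119351076, plus strand, for Chac1, and at chr3:50443633-50443699, minus strand, for Slc7a11, which has 2 matches on opposite strands. The ER stretches are those of Hspa5 (chr2:34772005-34772063, plus strand), Calr (chr8:84847055-84847113, minus strand), Dnajc3 (chr14:118937807-118937865, plus strand), Creld2 (chr15:88819500-88819558, plus strand) and Herpud1 (chr8:94386296-94386407, plus strand). Herpud1 holds a CARE match first and an ERSE-II match nearer its start.

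The CARE pattern occurred in 6 of 20 amino acid windows (30.0%: Asns, Chac1, Pycr1, Slc1a4, Slc7a11 and Trib3), in 1 of 16 ER windows (6.25%, Herpud1) and in 1215 of 27025 promoters overall (4.50%). Among the aminoacyl-tRNA synthetases, which charge amino acids onto transfer RNA, it occurred in 5 of 13 windows (38.5%), in the list of other amino acid and stress genes in 6 of 33 (18.2%) and in other ER genes in 1 of 46 (2.17%). ERSE occurred in 7 of 16 ER windows (43.8%: Calr, Canx, Creld2, Dnajc3, Hsp90b1, Hspa5 and Pdia6), in 0 of 20 amino acid windows, in 3 of 46 windows of other ER genes (6.52%), in none of the synthetases or other stress genes and in 37 promoters overall (0.137%). ERSE-II was found in Herpud1 alone among the members and in 1 other ER gene (2.17%), against 12 promoters overall (0.0444%). The unfolded protein response element TGACGTGG was in no member window, but in 3 of 46 windows of other ER genes (6.52%) and 1 of 33 of other stress genes (3.03%), against 193 promoters overall (0.714%). A match describes letters in a window and is not evidence of binding. The Trib3 match lies after the start and the Slc1a4 match spans it.

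**Figure D1:**
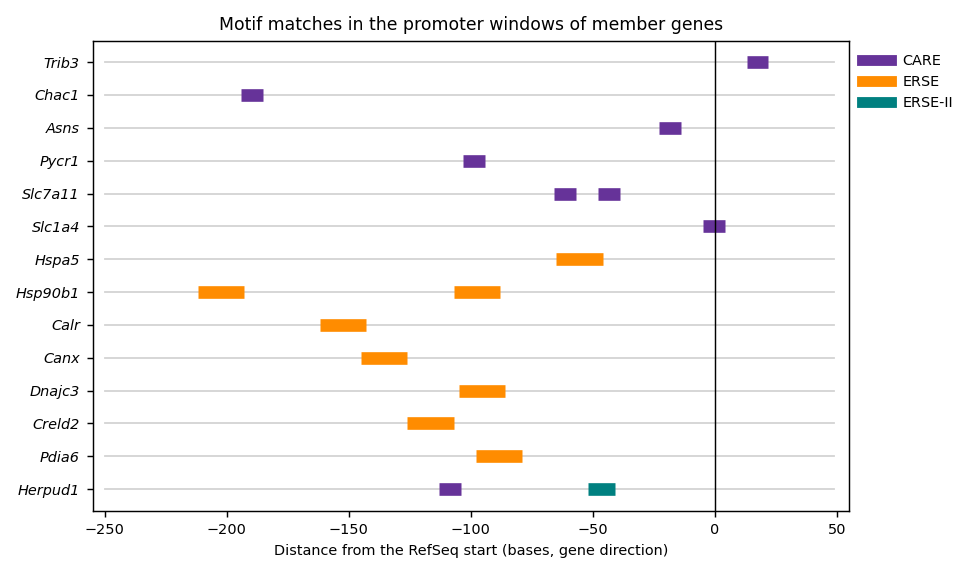
Position of each motif match in the 14 member promoters that hold one, in bases from the RefSeq start (x axis, gene direction), with CARE, ERSE and ERSE-II in separate colours and grey lines for the searched window. The 7 genes with ERSE are all of the ER arm, and of the 7 genes with CARE only Herpud1 is.

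The comparison of Tfh5 with TfhA sets TGF-β against its blockade in one kind of culture. Tfh5 cells had less transcript of most of the amino acid arm. Of its 22 genes 17 were lower in Tfh5, 2 were higher (Slc1a4 and Slc38a2) and 3 did not pass (Pycr1, Slc3a2 and Slc1a5). Over all 13075 tested genes 57.5% were called at an adjusted p under 0.05, 30.1% lower and 27.4% higher. The arm's median log2 fold change was -1.07, against -0.01 for all genes. At least 2-fold and called were 13 members of the arm, and the same holds for 23.7% of all genes. Among them, Chac1 and Slc7a11 had only 13 and 10 counts over the Tfh5 libraries. These 2 genes reached the level needed for testing through the other groups. In bulk RNA, fewer cells of a type and less transcript per cell cannot be told apart.

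The ER arm moved less and in both directions. Of its 18 genes 11 were lower in Tfh5 and 3 were higher (Ern1, Dnajb9 and Dnajc3), with a median of -0.28. The other 4, Xbp1, Creld2, Pdia3 and Sel1l, did not pass. At least 2-fold and called were 2 members of this arm (Ern1 and Dnajb9), against 23.7% of all genes. Libraries of the 2 groups did not overlap in 16 amino acid genes and 10 ER genes, against 44.2% of all tested genes. Without the 3 libraries named above, 16 amino acid genes and 9 ER genes were lower and the higher counts were the same. With the mitochondrial genome left out, 17 and 10 were lower and 2 and 4 higher.

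Between TfhA and Th1 few members differed by 2-fold or more. Of the amino acid arm, 8 genes were higher in TfhA (Atf4, Ddit3, Psph, Shmt1, Shmt2, Mthfd2, Slc1a5 and Slc7a1) and 2 were lower (Pycr1 and Slc7a5), while 44.8% of all tested genes were called, 23.2% higher and 21.6% lower. The ER arm held 5 genes higher in TfhA (Atf6, Hspa5, Dnajc3, Pdia4 and Herpud1) and 4 lower (Xbp1, Ern1, Manf and Edem1). Median log2 fold changes were 0.23 and 0.09, against 0.03 for all genes. The only members both called and at least 2-fold apart were Pycr1, Ern1 and Edem1, all lower in TfhA, and 13.7% of all genes met that limit. Of these, Pycr1 had only 44 counts over the TfhA libraries and reached the level needed for testing through Th1. Libraries did not overlap in 7 amino acid genes and 10 ER genes, against 38.1% of all genes. Without the 3 libraries, 6 amino acid genes were higher and 0 lower (Pycr1 at adjusted p = 0.199 and Slc7a5 at 0.131 by the edgeR test), and 4 ER genes were higher and 4 lower. By library totals alone, 11 amino acid and 8 ER genes were higher and 1 and 3 were lower. Several of these calls did not pass when a single library was left out. Whether this reflects the smaller number of libraries was not tested. Without TfhA replicate 2 those of Psph and Shmt2 were lost (adjusted p = 0.0648 and 0.132), without TfhA replicate 4 those of Psph and Manf (0.0582 and 0.119), without TfhA replicate 5 that of Psph (0.0543), and without TfhA replicate 1 that of Herpud1 (0.100). Among the Th1 libraries, Psph was lost without replicate 2, 4 or 5, Shmt2 without 4 or 5 and Manf without 3, 4 or 5, with adjusted p of 0.0501 to 0.0782. The calls of Pycr1 and Slc7a5 were lost without TfhA replicate 4 or 5 or Th1 replicate 1 (edgeR test, adjusted p = 0.0580 to 0.107). That of Atf4 was lost without TfhA replicate 1 (edgeR test, adjusted p = 0.0615).

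Against Th1, Tfh5 cells again had less transcript of the amino acid arm. In Tfh5, 18 of its genes were lower, 3 were higher (Slc1a5, Slc1a4 and Slc38a2) and Ddit3 did not pass, with a median of -0.88 against -0.01 for all genes. The ER arm had 9 genes lower and 2 higher (Dnajb9 and Dnajc3), with a median of -0.22. This comparison shares its libraries with the other two, and 64.6% of all tested genes were called in it, 33.0% lower and 31.5% higher. Called and at least 2-fold apart were 9 amino acid genes and 3 ER genes (Edem1, Dnajb9 and Dnajc3), against 27.9% of all genes. Among the 9, Chac1, Slc7a11 and Pycr1 had only 13, 10 and 26 counts over the Tfh5 libraries. These genes reached the level needed for testing through the other groups. They also count among the lower genes and among those without overlap. Without the 3 libraries, 18 amino acid genes and 8 ER genes were lower and 2 and 2 were higher. Libraries did not overlap in 19 and 10 members, against 50.2% of all genes.

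**Figure D2:**
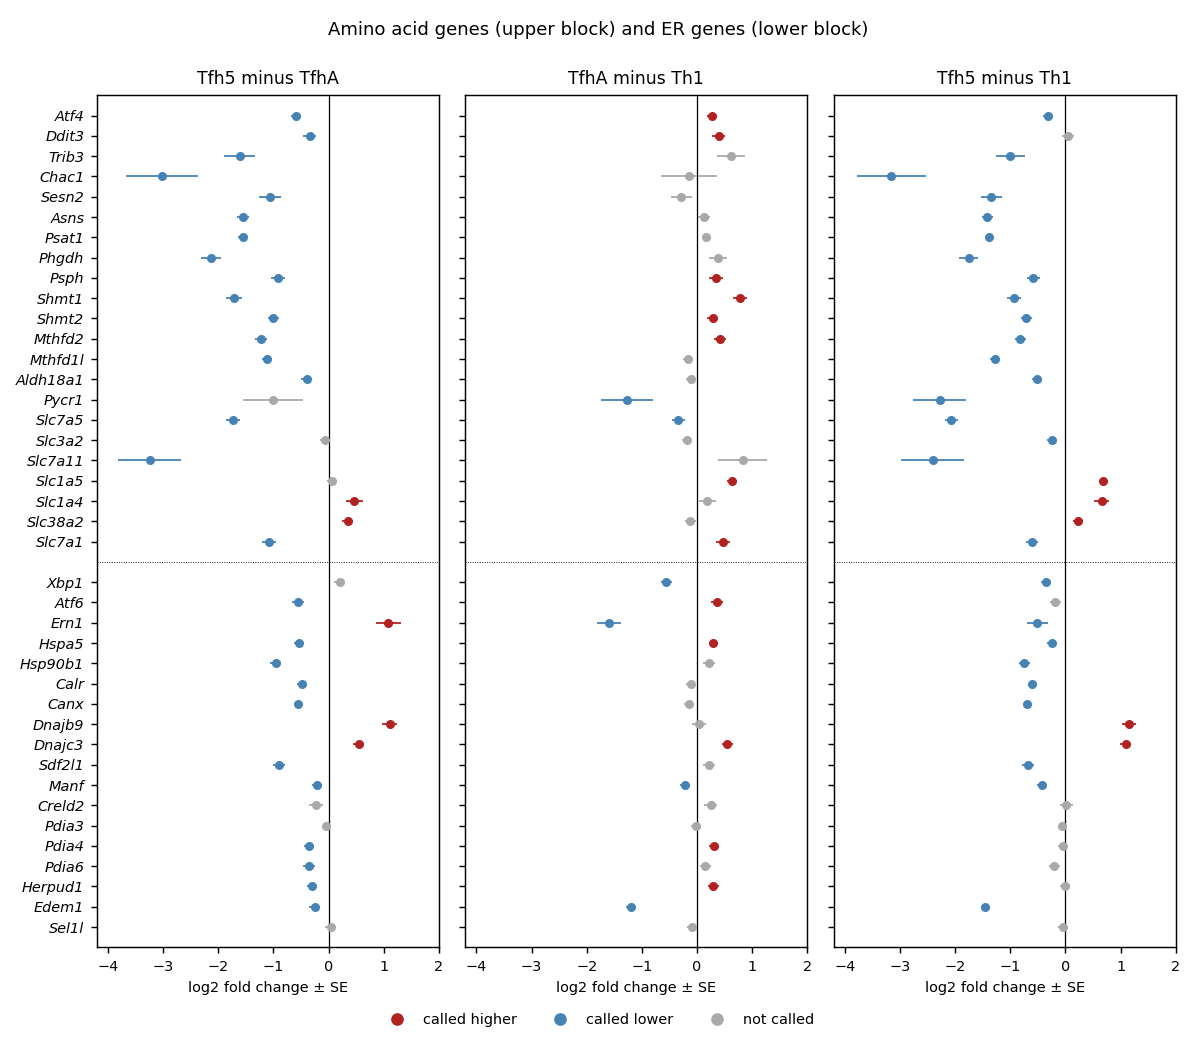
Log2 fold change ± SE (x axis, edgeR fit) of each of the 40 members (y axis) in Tfh5 minus TfhA, TfhA minus Th1 and Tfh5 minus Th1, coloured by call. In the panels with Tfh5 most amino acid genes lie left of 0, and in the upper block only Slc1a4, Slc38a2 and, against Th1, Slc1a5 are called higher; in the lower block Dnajb9 and Dnajc3 are higher in both.

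Among the regulators, Atf4 itself (Entrez gene 11911, mm10 chromosome 15, 80255184 to 80257545) had 160.2, 186, 187, 190.1 and 169 CPM in the Tfh5 libraries, 294, 272, 229 and 282 CPM in the TfhA libraries and 213, 216, 228, 214 and 242 CPM in the Th1 libraries. All Tfh5 libraries lay below every TfhA and Th1 library, and TfhA and Th1 overlapped. Atf4 was 1.51-fold lower in Tfh5 than in TfhA (log2 fold change -0.59 ± 0.09, adjusted p = 3.85e-06) and lower than in Th1 (-0.32 ± 0.08, adjusted p = 0.00219). Its difference between TfhA and Th1 was small (0.28 ± 0.09, adjusted p = 0.0142), and missed the threshold without TfhA replicate 1 (adjusted p = 0.0615) and without the 3 libraries (adjusted p = 0.159).

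Ddit3 encodes CHOP, a stress transcription factor downstream of ATF4 (Entrez gene 13198, mm10 chromosome 10, 127290793 to 127296291). It had 39, 36.4, 39.3, 26 and 33.3 CPM in the Tfh5 libraries, 45.4, 46.4, 41.2 and 43.8 CPM in the TfhA libraries and 35.5, 33.1, 33.4, 32.8 and 33.9 CPM in the Th1 libraries. TfhA lay above both other groups with no overlap, and Tfh5 and Th1 overlapped. The log2 fold change was -0.35 ± 0.11, adjusted p = 0.0118 in Tfh5 against TfhA and 0.39 ± 0.11, adjusted p = 0.00679 in TfhA against Th1. For Tfh5 against Th1 it was 0.04 ± 0.11, adjusted p = 0.739. Without the 3 libraries neither of the first pair passed (-0.29 ± 0.14, adjusted p = 0.0972 and 0.37 ± 0.15, adjusted p = 0.0568).

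The remaining regulators are Trib3, Sesn2 and Chac1. Trib3, a pseudokinase that restrains ATF4 and CHOP, averaged 3.44 ± 1.59 CPM in Tfh5, 10.5 ± 1.92 CPM in TfhA and 6.87 ± 2.31 CPM in Th1 (SD), and was 3.06-fold lower in Tfh5 than in TfhA. Sesn2, a sestrin that senses leucine and restrains the growth kinase mTORC1, averaged 6.14 ± 1.83 CPM in Tfh5, 12.8 ± 2.91 CPM in TfhA and 15.6 ± 1.73 CPM in Th1. It was 2.08-fold lower in Tfh5 than in TfhA and 2.54-fold lower than in Th1. Chac1, which degrades glutathione, had few counts, with 13 counts over the Tfh5 libraries, 89 over TfhA and 160 over Th1. Its Tfh5 libraries overlapped TfhA and lay below Th1. Its fitted fold depended on Tfh5 replicate 2: the 8.10-fold lower level against TfhA became 16.7-fold without it, and the 8.93-fold lower level against Th1 became 18.4-fold.

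The enzymes moved together: 9 of 10 were lower in Tfh5 than in TfhA and 10 of 10 lower than in Th1, against 30.1% and 33.0% of all genes. The 10 include Pycr1, which had few counts and reached the level needed for testing through Th1. Asns, asparagine synthetase and a standard ATF4 target whose promoter match is shown above (Entrez gene 27053, mm10 chromosome 6, 7675165 to 7693209), had 32.8, 24.4, 31.9, 34.3 and 28.8 CPM in the Tfh5 libraries, 92.6, 76.2, 90.8 and 95.6 CPM in the TfhA libraries and 83.9, 70.4, 81.8, 81 and 89.3 CPM in the Th1 libraries. Every Tfh5 library lay below every other library, and TfhA and Th1 overlapped. Asns was 2.92-fold lower in Tfh5 than in TfhA (log2 fold change -1.55 ± 0.11, adjusted p = 8.90e-12) and 2.67-fold lower than in Th1 (-1.42 ± 0.10, adjusted p = 1.07e-11). Between TfhA and Th1 the value was 0.13 ± 0.11, adjusted p = 0.342.

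Serine is made in the cytosol by Phgdh, Psat1 and Psph in turn. Phgdh, the entry step (Entrez gene 236539, mm10 chromosome 3, 98313171 to 98339969), had 6.19, 4.59, 4.53, 3.89 and 4.33 CPM in the Tfh5 libraries, 21.1, 27.7, 16.5 and 17.4 CPM in the TfhA libraries and 18, 14.6, 15.6, 13.5 and 18 CPM in the Th1 libraries. Tfh5 did not overlap either other group, while TfhA and Th1 overlapped. It was 4.41-fold lower in Tfh5 than in TfhA (-2.14 ± 0.18, adjusted p = 2.40e-10) and 3.38-fold lower than in Th1 (-1.76 ± 0.17, adjusted p = 2.74e-09). Psat1 averaged 79.7 ± 4.54 CPM in Tfh5, 234 ± 13 CPM in TfhA and 208 ± 9.36 CPM in Th1, again with no overlap of Tfh5. Psph, the last step, fell less, by 0.92 on the log2 scale in Tfh5 against TfhA and by 0.58 against Th1.

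Serine hydroxymethyltransferases pass a carbon unit of serine to folate. Shmt1, the cytosolic form (Entrez gene 20425, mm10 chromosome 11, 60788897 to 60811265), had 15.4, 15.5, 13.4, 13.3 and 17.2 CPM in the Tfh5 libraries, 42.6, 63.4, 48.7 and 42.2 CPM in the TfhA libraries and 34.2, 25.8, 31.6, 25.3 and 26.3 CPM in the Th1 libraries. The 3 groups did not overlap, with TfhA highest and Tfh5 lowest. Shmt1 was 3.29-fold lower in Tfh5 than in TfhA (-1.72 ± 0.14, adjusted p = 1.18e-10), 1.72-fold higher in TfhA than in Th1 (0.78 ± 0.13, adjusted p = 3.86e-05) and 1.91-fold lower in Tfh5 than in Th1 (-0.94 ± 0.13, adjusted p = 1.19e-06). Its mitochondrial counterpart Shmt2 averaged 50.6 ± 3.44 CPM in Tfh5, 101 ± 14 CPM in TfhA and 82.9 ± 7.32 CPM in Th1. The mitochondrial folate enzymes Mthfd2 and Mthfd1l were 2.35-fold and 2.17-fold lower in Tfh5 than in TfhA. Mthfd2 was higher in TfhA than in Th1 (0.41 ± 0.11, adjusted p = 0.00277), and Mthfd1l was at -0.16 ± 0.09, adjusted p = 0.137.

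Of the proline enzymes, Aldh18a1 averaged 72.8 ± 6.54 CPM in Tfh5, 96.1 ± 4.45 CPM in TfhA and 104 ± 8.42 CPM in Th1 and was lower in Tfh5 than in TfhA (-0.40 ± 0.09, adjusted p = 6.34e-04). Pycr1, the last step, had few counts, with 26 over Tfh5, 44 over TfhA and 167 over Th1. Its TfhA libraries split, replicates 1 and 2 at 1.59 and 1.54 CPM and replicates 4 and 5 at 0.217 and 0.318 CPM. Pycr1 did not pass in Tfh5 against TfhA (-1.01 ± 0.54, adjusted p = 0.117), though it did without TfhA replicate 4 (-1.31 ± 0.53, adjusted p = 0.0401), and was lower in Tfh5 than in Th1 (-2.28 ± 0.48, adjusted p = 1.96e-04). It was lower in TfhA than in Th1 (-1.27 ± 0.47, adjusted p = 0.0296), a call lost without Th1 replicate 1 or TfhA replicate 4 or 5 (adjusted p = 0.0734, 0.0993 and 0.107).

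The transporters split. Slc7a5 and Slc3a2 encode the 2 chains of LAT1, the carrier that brings leucine and other large neutral amino acids into activated T cells. Slc7a5, the transporting chain (Entrez gene 20539, mm10 chromosome 8, 121881146 to 121907686), had 37.2, 41.8, 42.6, 36.3 and 50.9 CPM in the Tfh5 libraries, 157, 164, 127 and 108 CPM in the TfhA libraries and 204, 179.9, 173, 173 and 151 CPM in the Th1 libraries. Tfh5 did not overlap the other groups, and TfhA and Th1 overlapped. It was 3.33-fold lower in Tfh5 than in TfhA (-1.73 ± 0.12, adjusted p = 1.08e-11) and 4.21-fold lower than in Th1 (-2.07 ± 0.12, adjusted p = 8.89e-14). The lower level in TfhA than in Th1 (-0.34 ± 0.12, adjusted p = 0.0239) did not pass without Th1 replicate 1 or TfhA replicate 4 or 5 (adjusted p = 0.0580, 0.0733 and 0.106).

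Slc3a2, the partner chain, averaged 113 ± 4.34 CPM in Tfh5, 119 ± 14.7 CPM in TfhA and 135 ± 10.9 CPM in Th1. It did not pass in Tfh5 against TfhA (-0.07 ± 0.09, adjusted p = 0.575) and was lower in Tfh5 than in Th1 (-0.25 ± 0.09, adjusted p = 0.0157). Per kilobase of exon, the level of Slc7a5 over that of Slc3a2 was 0.317 ± 0.0458 in Tfh5, 1.0 ± 0.0713 in TfhA and 1.12 ± 0.0561 in Th1 (mean ± SD over libraries). The highest Tfh5 ratio was 0.386, the lowest TfhA ratio 0.909 and the lowest Th1 ratio 1.04. This ratio was chosen after the values were seen and was not tested.

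Slc7a1, a carrier of arginine and lysine (Entrez gene 11987, mm10 chromosome 5, 148327410 to 148399904), had 49.4, 80.7, 70.0, 76.3 and 95.1 CPM in the Tfh5 libraries, 167, 161, 144 and 156 CPM in the TfhA libraries and 119.9, 111, 112, 119 and 105 CPM in the Th1 libraries. The 3 groups did not overlap, with TfhA highest and Tfh5 lowest. Slc7a1 was 2.11-fold lower in Tfh5 than in TfhA (-1.08 ± 0.12, adjusted p = 4.57e-08), higher in TfhA than in Th1 (0.47 ± 0.12, adjusted p = 0.00273) and lower in Tfh5 than in Th1 (-0.61 ± 0.12, adjusted p = 6.84e-05). Slc7a11, the cystine carrier with 2 promoter matches, had 10 counts over Tfh5, 76 over TfhA and 72 over Th1. It was lower in Tfh5 than in TfhA (-3.24 ± 0.57, adjusted p = 3.10e-05) and than in Th1 (-2.41 ± 0.57, adjusted p = 6.98e-04).

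The sodium-coupled carriers of small neutral amino acids did not follow. Slc1a5, which carries glutamine (Entrez gene 20514, mm10 chromosome 7, 16781334 to 16798274), had 296, 337, 279.5, 277 and 333 CPM in the Tfh5 libraries, 302, 327, 247 and 290.4 CPM in the TfhA libraries and 195, 184, 191, 191 and 182 CPM in the Th1 libraries. Tfh5 and TfhA overlapped, and both lay above Th1 in every library. The log2 fold change was 0.06 ± 0.09, adjusted p = 0.589 in Tfh5 against TfhA, 0.63 ± 0.09, adjusted p = 4.87e-06 in TfhA against Th1 and 0.69 ± 0.09, adjusted p = 1.95e-07 in Tfh5 against Th1. Slc1a4, a related carrier of alanine and serine whose promoter holds a CARE match, was higher in Tfh5 than in TfhA (0.47 ± 0.15, adjusted p = 0.00852) and than in Th1 (0.66 ± 0.14, adjusted p = 1.82e-04). Slc38a2, a glutamine carrier raised by amino acid shortage in cultured cells, averaged 303 ± 38.3 CPM in Tfh5, 238 ± 22.5 CPM in TfhA and 259 ± 16.4 CPM in Th1. It was higher in Tfh5 than in TfhA (0.35 ± 0.10, adjusted p = 0.00426). Its difference from Th1 (0.23 ± 0.09, adjusted p = 0.0360) passed in 16 of 23 alternative analyses, and not without Tfh5 replicate 2, 3 or 5 or Th1 replicate 1 or 5 (adjusted p = 0.0544 to 0.0959).

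Of the 6 amino acid genes with a CARE match, Asns, Chac1, Slc7a11 and Trib3 were lower in Tfh5 than in TfhA, Slc1a4 was higher and Pycr1 did not pass. Phgdh and Shmt1, 4.41-fold and 3.29-fold lower, had no match in the window. Over all tested genes 30.1% were lower and 27.4% higher in Tfh5 than in TfhA. No count of genes with a match was tested against the rest.

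**Figure D3:**
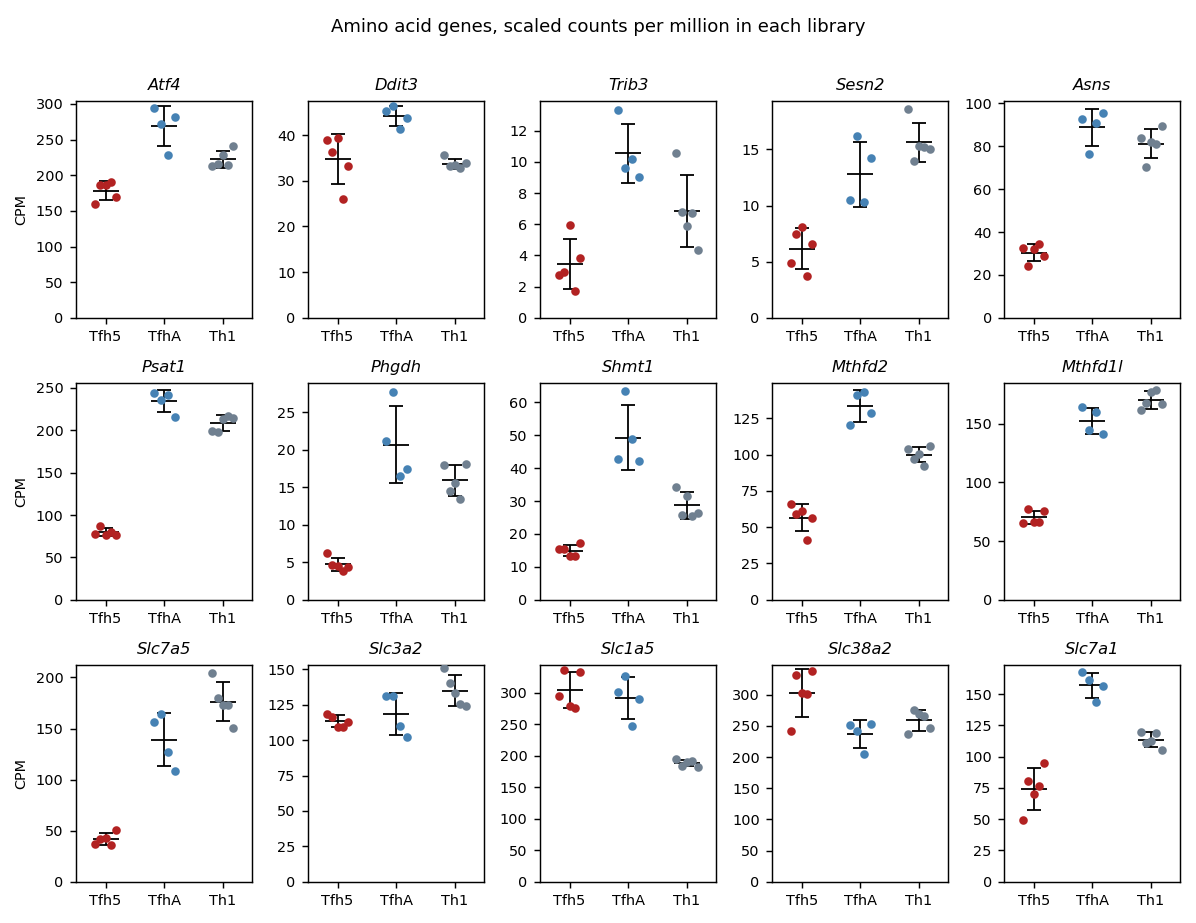
CPM (y axis, from 0) of 15 amino acid genes in each library, with Tfh5, TfhA and Th1 from left to right, bars at the mean and whiskers of 1 SD (n = 5, 4 and 5). Tfh5 lies lowest for Asns, Psat1, Phgdh, Slc7a5 and Slc7a1, Slc3a2 overlaps TfhA, and Slc1a5 and Slc38a2 have their highest mean in Tfh5.

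In the ER arm the sensors went separate ways. Xbp1, the transcription factor activated by splicing (Entrez gene 22433, mm10 chromosome 11, 5520641 to 5525993), had 408, 367, 410.0, 346 and 319 CPM in the Tfh5 libraries, 359, 332, 258 and 334 CPM in the TfhA libraries and 439, 486, 482, 492 and 459 CPM in the Th1 libraries. Th1 lay above both other groups in every library, and Tfh5 and TfhA overlapped. The log2 fold change was 0.21 ± 0.10, adjusted p = 0.0793 in Tfh5 against TfhA, -0.56 ± 0.10, adjusted p = 7.08e-05 in TfhA against Th1 and -0.35 ± 0.09, adjusted p = 0.00209 in Tfh5 against Th1. The first value passed without TfhA replicate 1 (0.26 ± 0.11, adjusted p = 0.0445) and without Tfh5 replicate 5 (0.26 ± 0.10, adjusted p = 0.0325), and with the mitochondrial genome, whose share differed between these groups, left out (0.24 ± 0.10, adjusted p = 0.0430).

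Ern1, the sensor that splices Xbp1 (Entrez gene 78943, mm10 chromosome 11, 106397620 to 106487796), had 6.09, 16.6, 12.9, 17.2 and 14.3 CPM in the Tfh5 libraries, 7.65, 6.31, 5.41 and 5.73 CPM in the TfhA libraries and 19.9, 18.8, 20.6, 22.3 and 14 CPM in the Th1 libraries. Tfh5 replicate 1 was the only Tfh5 library within the TfhA range. Th1 overlapped Tfh5 and did not overlap TfhA. Ern1 was 2.12-fold higher in Tfh5 than in TfhA (1.08 ± 0.23, adjusted p = 2.35e-04), and without Tfh5 replicate 1 the value was 1.27 ± 0.17, adjusted p = 1.14e-06. It was 3.02-fold lower in TfhA than in Th1 (-1.60 ± 0.22, adjusted p = 2.87e-06). The lower level in Tfh5 than in Th1 (-0.51 ± 0.20, adjusted p = 0.0256) did not pass without Tfh5 replicate 1 (adjusted p = 0.0639) or without Th1 replicate 3 or 4 (0.0516 and 0.0665). Atf6, the other transmembrane sensor, averaged 78.6 ± 12.4 CPM in Tfh5, 115 ± 5.40 CPM in TfhA and 89.3 ± 9.16 CPM in Th1, with TfhA highest rather than lowest. It was lower in Tfh5 than in TfhA (-0.55 ± 0.11, adjusted p = 1.05e-04) and higher in TfhA than in Th1 (0.36 ± 0.11, adjusted p = 0.00730), the second call being lost without the 3 libraries (0.30 ± 0.14, adjusted p = 0.0954). Without Tfh5 replicate 2 it was also lower in Tfh5 than in Th1 (-0.27 ± 0.10, adjusted p = 0.0248), where all libraries gave -0.19 ± 0.10, adjusted p = 0.113.

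Of the 9 chaperones 6 were lower and 2 higher in Tfh5 than in TfhA, against 30.1% and 27.4% of all genes. Hspa5 encodes BiP, the main ER chaperone and a standard read-out of ER stress, with the ERSE match shown above (Entrez gene 14828, mm10 chromosome 2, 34772090 to 34776529). It had 445, 494, 431, 461 and 486 CPM in the Tfh5 libraries, 632, 624, 775 and 673 CPM in the TfhA libraries and 522, 550.0, 551, 519 and 609.9 CPM in the Th1 libraries. The 3 groups did not overlap, with TfhA highest and Tfh5 lowest. Hspa5 was 1.46-fold lower in Tfh5 than in TfhA (-0.54 ± 0.09, adjusted p = 9.26e-06), higher in TfhA than in Th1 (0.30 ± 0.09, adjusted p = 0.00767) and lower in Tfh5 than in Th1 (-0.25 ± 0.08, adjusted p = 0.0118).

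Hsp90b1, the ER form of the chaperone HSP90 (Entrez gene 22027, mm10 chromosome 10, 86690841 to 86705444), had 423, 453, 487, 453 and 452 CPM in the Tfh5 libraries, 809.8, 747, 1126 and 843 CPM in the TfhA libraries and 679.7, 806, 763, 714 and 839 CPM in the Th1 libraries. TfhA replicate 4 was the highest library, Tfh5 lay below all others, and TfhA and Th1 overlapped. It was 1.94-fold lower in Tfh5 than in TfhA (-0.96 ± 0.10, adjusted p = 2.11e-08) and 1.68-fold lower than in Th1 (-0.75 ± 0.10, adjusted p = 4.19e-07). The lectin chaperones Calr and Canx, which hold new glycoproteins, were 1.40-fold and 1.46-fold lower in Tfh5 than in TfhA. Sdf2l1, a BiP cofactor, was 1.87-fold lower. Manf, a secreted ER protein, was 1.16-fold lower (-0.21 ± 0.08, adjusted p = 0.0380), a call that held in 9 of 23 alternative analyses, with adjusted p of 0.0108 to 0.286. Single libraries whose removal ended it were Tfh5 replicates 4 and 5, TfhA replicates 1, 2 and 5 and Th1 replicates 2 to 5. Creld2 did not pass in any comparison (-0.23 ± 0.12, adjusted p = 0.116 in Tfh5 against TfhA), but without Tfh5 replicate 1 it was lower in Tfh5 than in TfhA (-0.33 ± 0.11, adjusted p = 0.0157).

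Dnajb9 and Dnajc3 moved the other way. Dnajb9, a BiP co-chaperone also known as ERdj4 (Entrez gene 27362, mm10 chromosome 12, 44205897 to 44210068), had 57.8, 48.7, 51.2, 50.8 and 45 CPM in the Tfh5 libraries, 23, 23, 20.6 and 27.2 CPM in the TfhA libraries and 16.3, 23, 27.6, 25.6 and 22.1 CPM in the Th1 libraries. Every Tfh5 library lay above every other library, and TfhA and Th1 overlapped. Dnajb9 was 2.16-fold higher in Tfh5 than in TfhA (1.11 ± 0.14, adjusted p = 1.56e-07) and 2.22-fold higher than in Th1 (1.15 ± 0.13, adjusted p = 1.75e-08), with 0.04 ± 0.14, adjusted p = 0.855 in TfhA against Th1. Dnajb9 is a known target of spliced Xbp1, and these counts do not show that splicing.

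Dnajc3, the co-chaperone p58IPK (Entrez gene 100037258, mm10 chromosome 14, 118937932 to 118981702), had 227, 215, 225, 275 and 239 CPM in the Tfh5 libraries, 140.4, 150.4, 178 and 178 CPM in the TfhA libraries and 91.4, 109.8, 125, 109 and 117 CPM in the Th1 libraries. The 3 groups did not overlap, with Tfh5 highest and Th1 lowest. Its log2 fold change was 0.55 ± 0.10, adjusted p = 7.94e-05 in Tfh5 against TfhA, 0.55 ± 0.10, adjusted p = 1.24e-04 in TfhA against Th1 and 1.10 ± 0.10, adjusted p = 5.23e-10 in Tfh5 against Th1. Of the 7 members with an ERSE match, Hspa5, Hsp90b1, Calr, Canx and Pdia6 were lower in Tfh5 than in TfhA, Dnajc3 was higher and Creld2 did not pass. All tested genes were 30.1% lower and 27.4% higher. Among searched ER genes without that match, Sdf2l1, Pdia4, Herpud1 and Edem1 were lower and Ern1 and Dnajb9 higher. Xbp1, Pdia3 and Sel1l, also without it, did not pass. Without the 3 libraries the Pdia6 value no longer passed (adjusted p = 0.0851).

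Disulfide isomerases form and shuffle the sulfur bonds of new proteins. Pdia3 was among the most abundant members and averaged 744 ± 62.2 CPM in Tfh5, 766 ± 72.3 CPM in TfhA and 774 ± 21.8 CPM in Th1, with a log2 fold change of -0.04 ± 0.09, adjusted p = 0.715 in Tfh5 against TfhA. Pdia4 and Pdia6 were lower in Tfh5 than in TfhA (-0.36 ± 0.09, adjusted p = 9.67e-04 and -0.36 ± 0.11, adjusted p = 0.00657). Against Th1 none of the 3 passed, with adjusted p of 0.563, 0.636 and 0.0842 by the edgeR test and unadjusted p of 0.496, 0.573 and 0.0574. Without Tfh5 replicate 1, Pdia6 passed (-0.26 ± 0.10, adjusted p = 0.0283).

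In ER-associated degradation, Edem1, which marks misfolded glycoproteins for removal (Entrez gene 192193, mm10 chromosome 6, 108824045 to 108859356), had 115, 155, 152, 152 and 157 CPM in the Tfh5 libraries, 179, 159, 187 and 173 CPM in the TfhA libraries and 414, 392, 407, 401 and 387 CPM in the Th1 libraries. Th1 lay far above the other groups, and Tfh5 lay below TfhA without overlap. Edem1 was 2.29-fold lower in TfhA than in Th1 (-1.20 ± 0.10, adjusted p = 2.23e-10) and 2.74-fold lower in Tfh5 than in Th1 (-1.45 ± 0.09, adjusted p = 3.32e-13). The small difference of Tfh5 from TfhA (-0.25 ± 0.09, adjusted p = 0.0220) did not pass without Tfh5 replicate 1, which was the lowest library (adjusted p = 0.0637), or without TfhA replicate 1 or 4 (0.0516 and 0.0612). Herpud1, a stress-induced adaptor of the degradation complex with both promoter patterns, averaged 103 ± 4.64 CPM in Tfh5, 127 ± 19.5 CPM in TfhA and 103 ± 4.36 CPM in Th1. It was lower in Tfh5 than in TfhA (-0.30 ± 0.09, adjusted p = 0.00831), but not without TfhA replicate 1 (adjusted p = 0.0731). Sel1l, the scaffold of that complex, did not pass in any comparison (0.04 ± 0.10, adjusted p = 0.770 in Tfh5 against TfhA, -0.08 ± 0.10, adjusted p = 0.524 in TfhA against Th1 and -0.05 ± 0.09, adjusted p = 0.691 in Tfh5 against Th1).

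**Figure D4:**
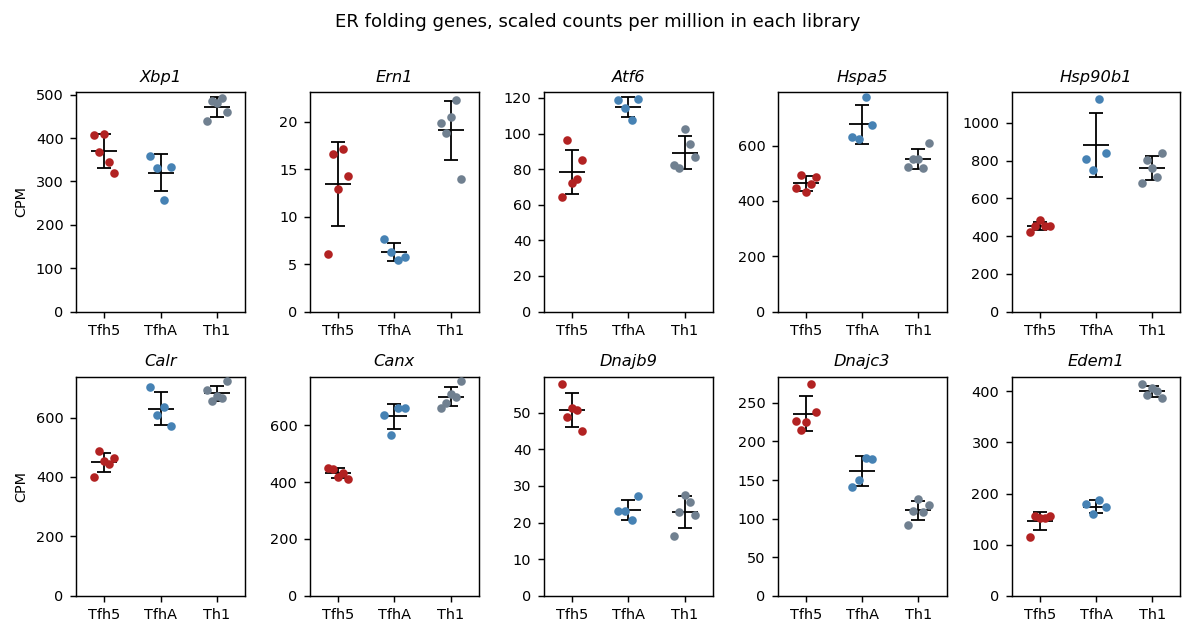
CPM (y axis, from 0) of 10 ER genes in each library, with Tfh5, TfhA and Th1 from left to right, bars at the mean and whiskers of 1 SD (n = 5, 4 and 5). Hspa5, Hsp90b1, Calr and Canx lie lowest in Tfh5, Dnajb9 and Dnajc3 lie highest there, and Xbp1, Ern1 and Edem1 are highest in Th1.

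Across the 3 cultures, the most common order of mean levels in the amino acid arm was TfhA above Th1 above Tfh5, in 11 genes. In 6 of these both steps passed the test, and in the others the step between TfhA and Th1 did not. A further 7 genes had Th1 above TfhA above Tfh5, where the step between Th1 and TfhA passed only for Pycr1 and Slc7a5. Tfh5 was highest for Slc1a5, Slc1a4 and Slc38a2 only, and for Slc1a5 the step from TfhA did not pass. The ER arm had 8 genes highest in TfhA, 8 highest in Th1 and 2 (Dnajb9 and Dnajc3) highest in Tfh5. Of those highest in TfhA, the step to the next group passed only for Atf6, Hspa5, Pdia4 and Herpud1. Of those highest in Th1, it passed only for Xbp1, Ern1, Manf and Edem1. It passed for both Dnajb9 and Dnajc3. Summed over its members, the amino acid arm made up 0.148% ± 0.0100 in Tfh5, 0.227% ± 0.0127 in TfhA and 0.196% ± 0.00510 in Th1 of all counts (SD), and the ER arm 0.414% ± 0.00836 in Tfh5, 0.534% ± 0.0398 in TfhA and 0.530% ± 0.0159 in Th1. The 10 enzymes alone made up 0.0404% ± 0.00165 in Tfh5, 0.0942% ± 0.00581 in TfhA and 0.0815% ± 0.00295 in Th1.

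Replicates of the members spread no more than those of all genes, at levels that were not matched. The median coefficient of variation between libraries in the amino acid arm was 14.8% in Tfh5, 11% in TfhA and 8.49% in Th1. In the ER arm it was 8.78%, 9.84% and 6.18% in the same groups, and over all tested genes 15.6%, 15.5% and 12.8%. The widest spreads were those of Chac1 in Tfh5, Pycr1 in TfhA and Slc7a11 in Th1, all with few counts. Within Tfh5, the amino acid genes lay a median of -0.10 (log2 scale) from their group mean in replicate 4 and 0.12 in replicate 5, and within TfhA -0.10 in replicate 4 and 0.06 in replicate 2.

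The wider pathways were read from 3 lists. The 20 aminoacyl-tRNA synthetases, many of them ATF4 targets, nearly all fell in Tfh5: 19 were lower in Tfh5 than in TfhA, with a median log2 fold change of -0.84, and 20 of 20 were lower than in Th1 (all genes 30.1% and 33.0% lower). The exception was Qars1, which charges glutamine, at 165 ± 7.09 CPM in Tfh5, 167 ± 6.78 CPM in TfhA and 251 ± 25.6 CPM in Th1 (-0.01 ± 0.09, adjusted p = 0.920 in Tfh5 against TfhA). Cars1, for cysteine, was 2.15-fold lower in Tfh5 than in TfhA (-1.10 ± 0.14, adjusted p = 3.54e-07), and Eprs1, Vars1 and Rars1 were 1.97-fold, 1.92-fold and 1.87-fold lower. Against Th1 the called synthetases with the largest change were Vars1, Cars1, Mars1 and Aars1, 2.13-fold, 1.92-fold, 1.90-fold and 1.82-fold lower in Tfh5. Between TfhA and Th1, 8 were higher in TfhA (all genes 23.2%), with Nars1 (0.53 ± 0.09, adjusted p = 3.76e-05), Lars1 (0.42 ± 0.11, adjusted p = 0.00284) and Eprs1 (0.40 ± 0.10, adjusted p = 0.00229) in front, and Qars1 was lower (-0.59 ± 0.09, adjusted p = 6.35e-06). The synthetases together held 0.211% ± 0.00444 in Tfh5, 0.350% ± 0.0244 in TfhA and 0.310% ± 0.0126 in Th1 of all counts.

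The list of 42 other genes of the integrated stress response and of amino acid use, of which all but Cbs could be tested, was mixed. In Tfh5 against TfhA 19 were lower and 9 higher, in TfhA against Th1 14 lower and 8 higher, and in Tfh5 against Th1 20 lower and 10 higher. Over all tested genes 57.5%, 44.8% and 64.6% were called in these comparisons, so a large part of any list would be called. By direction, 30.1%, 21.6% and 33.0% of all genes were lower and 27.4%, 23.2% and 31.5% higher. The list's lower counts lie above these shares and its higher counts below them, which was not tested. Atf3, a stress transcription factor that T cells also induce on activation, averaged 1.10 ± 0.954 CPM in Tfh5, 24.7 ± 4.65 CPM in TfhA and 85.1 ± 4.48 CPM in Th1. It was 21-fold lower in Tfh5 than in TfhA (-4.40 ± 0.26, adjusted p = 2.67e-13) and 3.43-fold lower in TfhA than in Th1. Vldlr, a lipoprotein receptor that ATF4 can induce, ran in the same order at 3.38 ± 1.54 CPM in Tfh5, 18.6 ± 2.97 CPM in TfhA and 55.8 ± 8.06 CPM in Th1. Cth, which makes cysteine, averaged 0.688 ± 0.579 CPM in Tfh5, 11.7 ± 1.69 CPM in TfhA and 10.1 ± 2.02 CPM in Th1, 16-fold lower in Tfh5 than in TfhA (-4.00 ± 0.34, adjusted p = 2.40e-10). Atf3 and Cth had few counts in Tfh5, so the size of both folds rests on very low levels there. Cth reached the level needed for testing through the other groups. Gcsh, of the glycine cleavage system, was 2.03-fold higher in TfhA than in Th1.

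Several genes of that list rose. Slc16a10, an aromatic amino acid carrier, averaged 293 ± 21.6 CPM in Tfh5, 42.8 ± 7.55 CPM in TfhA and 46.6 ± 3.53 CPM in Th1 and was 6.82-fold higher in Tfh5 than in TfhA (2.77 ± 0.11, adjusted p = 3.54e-16). Sesn1, a sestrin related to Sesn2, averaged 111 ± 8.19 CPM in Tfh5, 29 ± 2.67 CPM in TfhA and 12 ± 1.46 CPM in Th1, opposite to Sesn2, and was 9.21-fold higher in Tfh5 than in Th1. Singled out after their values were seen, the third sestrin Sesn3 was also higher in Tfh5 than in TfhA (1.09 ± 0.12, adjusted p = 3.72e-08), as were 2 of the 4 eIF2α kinases. Eif2ak3, the ER stress kinase PERK, was at 0.80 ± 0.10, adjusted p = 3.17e-07 and Eif2ak1, activated by lack of heme, at 0.58 ± 0.09, adjusted p = 4.34e-06. Eif2ak2, the kinase for double-stranded RNA, was lower at -1.96 ± 0.14, adjusted p = 1.08e-11, and Eif2ak4, which senses uncharged transfer RNA, was at 0.21 ± 0.11, adjusted p = 0.126.

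Of 56 other genes of ER folding, translocation and degradation, 16 were lower and 13 higher in Tfh5 than in TfhA, with a median of -0.05. These counts lie near the all-gene shares of 30.1% lower and 27.4% higher. In TfhA against Th1 16 were lower and 9 higher (all genes 21.6% and 23.2%), and in Tfh5 against Th1 22 were lower and 11 higher (all genes 33.0% and 31.5%). Ero1a, the oxidase that recharges the disulfide isomerases, averaged 51.5 ± 3.45 CPM in Tfh5, 123 ± 16.4 CPM in TfhA and 255 ± 32.4 CPM in Th1 and was 2.39-fold lower in Tfh5 than in TfhA (-1.26 ± 0.11, adjusted p = 3.05e-10). Fkbp2, a folding enzyme, was 2.08-fold lower. Creb3l2, an ER-anchored transcription factor, was 2.11-fold higher in Tfh5 than in TfhA and 1.84-fold lower in TfhA than in Th1. Rpn2, of the glycosylation complex, and Ssr1, of the translocon, were 2.33-fold and 2.15-fold lower in Tfh5 than in Th1. Os9, a lectin of degradation, was 1.63-fold lower in TfhA than in Th1.

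The relatives of Edem1 had different orders. Edem2 averaged 124 ± 7.38 CPM in Tfh5, 87.5 ± 10.1 CPM in TfhA and 229 ± 7.55 CPM in Th1 and was 2.62-fold lower in TfhA than in Th1 (-1.39 ± 0.09, adjusted p = 7.71e-12). Edem3 averaged 98 ± 4.69 CPM in Tfh5, 33.5 ± 3.93 CPM in TfhA and 24.5 ± 1.43 CPM in Th1 and was 2.92-fold higher in Tfh5 than in TfhA (1.54 ± 0.10, adjusted p = 2.25e-12) and 4.0-fold higher than in Th1. Edem1 and Edem2 were thus highest in Th1, and Edem3 in Tfh5. The plasma cell marker Derl3, an ER degradation gene in the same list, averaged 3.78 ± 0.885 CPM in Tfh5, 2.02 ± 0.192 CPM in TfhA and 0.556 ± 0.275 CPM in Th1. Whether cells of another type contribute to these levels was not tested.

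**Figure D5:**
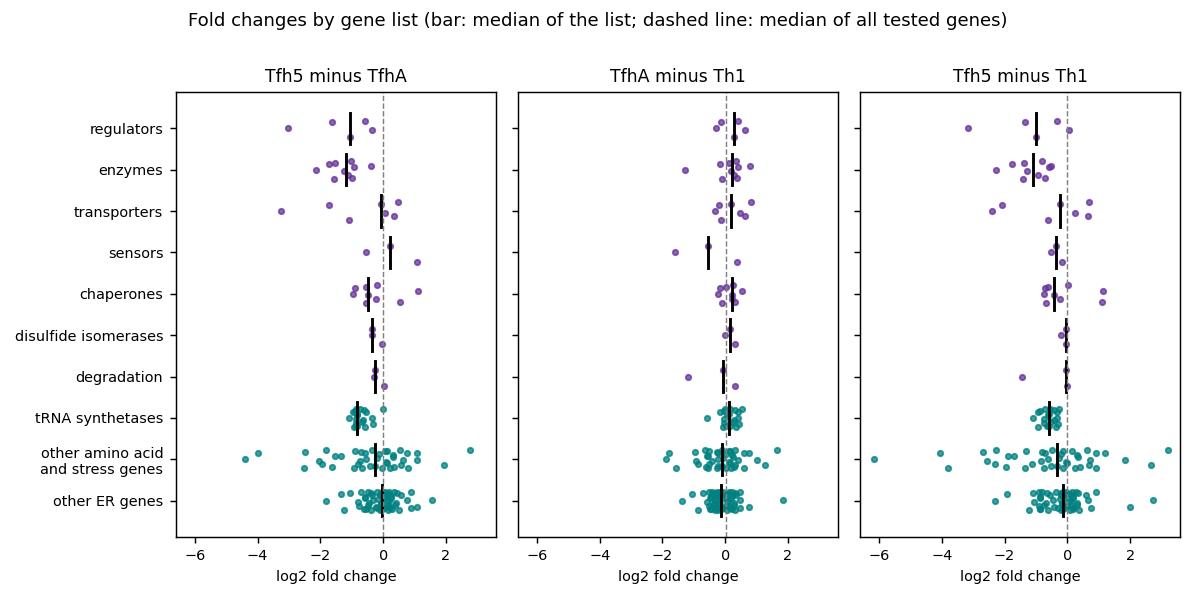
Log2 fold change (x axis) of each gene in the 7 role groups of members (purple) and in the 3 lists of other genes (green), with Tfh5 minus TfhA, TfhA minus Th1 and Tfh5 minus Th1 as panels, a bar at each list's median and a dashed line at the median of all tested genes. In both panels with Tfh5 the enzymes and the synthetases lie below 0, and the other ER genes spread to both sides.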

How the data were processed

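RNA of 14 sorted CD4 T cell cultures was sequenced from mRNA libraries made with 100 ng RNA, per the labels' protocols. The deposited values are raw counts per Entrez gene, with no normalization. Per the submitters' processing notes, STAR 2.7.2b, featureCounts 1.6.4 and the build mm10 were used. The strand setting, the annotation and the handling of reads with several positions could not be read from the labels. The 14 single files held the same counts as the series table, which has 0 further columns, and 25275 of 27179 identifiers had a symbol. Gene positions and promoters come from RefSeq and exon lengths from GENCODE, all on that build.

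Counts entered one edgeR 4.0.16 fit (R 4.3.3) of all 14 libraries with group means, after filterByExpr (13075 genes) and TMM scaling. Each comparison used the two-sided quasi-likelihood F test with Benjamini-Hochberg adjustment over all tested genes, and a gene was called at an adjusted p under 0.05. The SE is the size of the log2 fold change divided by the square root of F. The common biological coefficient of variation was 14.2%. CPM are TMM-scaled, errors of means are SD (n = 5, 4 and 5), and n counts libraries. The fit was also run on simulated counts in which few genes changed and all genes shared the same spread, unlike these data. DESeq2 1.42.0, other scalings, no filter, a replicate block, the 2 groups alone and leaving out libraries were alternatives. Members and lists were chosen with earlier results of these data known, and counts over a list are descriptions. Values per library are given for Atf4, Ddit3, Xbp1, Hspa5, Asns and, per comparison and arm, the 3 called members with the largest change and at least 5 CPM; of the 3 other lists, up to 4 called genes each were named. Reads of near-identical gene copies depend on the unknown counting setting.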

Additional observations from a re-analysis of the deposited data

Results flagged for a closer look

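Of 120 sets of replicates examined (40 members in 3 groups), 2 held a library far from the others by Dixon's criterion at 95%, which chance alone gives in about 1 in 20 groups. Psat1 had 87.6 CPM in Tfh5 replicate 2, above the 76.5 to 79.5 CPM of the other 4 Tfh5 libraries and below all TfhA and Th1 libraries. Edem1 had 115 CPM in Tfh5 replicate 1, below the 152 to 157 CPM of the other 4. Without that library the difference of Edem1 from TfhA was -0.17 ± 0.08, adjusted p = 0.0637, and that from Th1 was -1.38 ± 0.08, adjusted p = 1.20e-13, by edgeR's quasi-likelihood test.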

How the results depend on the processing

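All counts by arm were within 1.5 times of those reported under the scalings, DESeq2, no filter, the replicate block, the 2 groups alone and left-out libraries, apart from 2 counts of TfhA against Th1. Amino acid genes lower in TfhA, 2 as reported, were 1 by library totals alone, 0 without the 3 libraries and 0 to 2 leaving out single libraries (0 without TfhA replicate 4, TfhA replicate 5 or Th1 replicate 1). ER genes higher in TfhA, 5 as reported, were 8 by library totals alone. Shorter motif cores matched more windows: for ERSE 15 amino acid, 14 ER, 17 other stress, 10 synthetase and 34 other ER genes and 9589 of all promoters, for ERSE-II 2 ER genes, 1 synthetase and 67 promoters, and for the unfolded protein response element 1 ER gene, 8 other ER genes and 738 promoters. Same-numbered libraries had deviations correlated at -0.048 to 0.155, so no pairing by number was seen. With so few libraries this cannot show that the numbers mark no shared animal or day. With a replicate block the arms held 17 lower and 2 higher amino acid genes and 10 lower and 3 higher ER genes in Tfh5 against TfhA, 2 and 9 with 3 and 5 in TfhA against Th1, and 18 and 3 with 9 and 2 in Tfh5 against Th1.

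Signs turned only for members near 0 that were not called (log2 fold changes). Leaving out single libraries gave -0.0109 to 0.12 for Slc1a5, -0.0877 to 0.0236 for Pdia3 and -0.0127 to 0.12 for Sel1l in Tfh5 against TfhA. In TfhA against Th1 it gave -0.46 to 0.14 for Chac1, -0.0712 to 0.11 for Dnajb9 and -0.0819 to 0.0223 for Pdia3. In Tfh5 against Th1 it gave -0.00189 to 0.14 for Ddit3, -0.0888 to 0.0872 for Creld2, -0.0777 to 0.000632 for Pdia4, -0.0322 to 0.0135 for Herpud1 and -0.0932 to 0.00606 for Sel1l. Without the 3 libraries, Dnajb9 (-0.18) and Pdia3 (0.00559) turned in TfhA against Th1, and Creld2 (-0.0156) and Herpud1 (0.0232) in Tfh5 against Th1. By library totals, Pdia3 was at 0.0415 in TfhA against Th1 and Herpud1 at 0.0189 in Tfh5 against Th1. In Tfh5 against Th1, Creld2 was at -0.00257 with no filter, and Herpud1 at 0.0204 without the mitochondrial genome and 0.0223 with the 2 groups alone. The cause of these changes was not tested. Calls were lost for 5, 9 and 2 members and gained for 3, 7 and 2 under at least 1 alternative, in Tfh5 against TfhA, TfhA against Th1 and Tfh5 against Th1. Few counts limit Chac1, Slc7a11 and Pycr1 among the members, and Atf3 and Cth in Tfh5 among the other genes.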
